A study of Chlamydomonas reinhardtii with 45 samples.

Results

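RNA-seq followed the unicellular green alga Chlamydomonas reinhardtii between 30 and 60 min of growth in 300 mM mannitol. The comparison set the 3 Mannitol 60 min libraries against the 3 Mannitol 30 min libraries, 6 of the 45 libraries of the time course, which were chosen by their labels alone. All 6 came from the wild-type strain CC-4533, as vegetative haploid cells grown in Tris-Acetate-Phosphate medium at 22 °C under low continuous light. Mannitol or 100 mM NaCl was added in early to mid exponential phase and both osmolytes were sampled from 15 min to 24 h, beside untreated controls at 0 h and 24 h. The NaCl 60 min and NaCl 30 min libraries (3 each), which share no library with the mannitol step, were used for the same interval with the ionic osmolyte. According to the study's methods the time points were drawn from the same flasks and replicates were biological. The labels do not tie a library to a flask, so p-values measure the spread between these libraries. In both groups replicate 3 has a library number of 49 or more, in a series apart from replicates 1 and 2. What this series stands for is not stated in the labels, and the main fits did not include it. One strain in 1 medium and at 1 dose of each osmolyte was measured, which limits the comparison to those conditions.

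Mannitol is a sugar alcohol used as a non-ionic osmolyte, which draws water out of the cell without adding ions, whereas NaCl adds both an osmotic and an ionic load. Walled plant and algal cells commonly answer such a loss of water with rapid ion fluxes, kinase cascades and second messengers, then with synthesis of compatible solutes and a temporary slowing of ribosome production, translation and division. Inositol phosphate synthase, cation pumps, mitogen-activated protein kinase cascades and nucleolar proteins are well-known parts of these responses in plants and yeast.

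Between 30 and 60 min in mannitol, 867 of 13651 transcripts rose and 398 fell by more than 2-fold at an adjusted p under 0.01 (limma with Benjamini-Hochberg adjustment), both when TPM (transcript abundance scaled to a fixed total per library) were rescaled by median ratios and when TPM were used as deposited. TPM are relative levels in bulk RNA, in which fewer cells of a kind and less RNA per cell cannot be told apart. The calls were 6.35% and 2.92% of the transcripts tested, or 9.27% in either direction. The transcripts that rose had a median change of 2.06 on the log2(TPM + 1) scale, with a median level of 33.2 scaled TPM at 60 min and 6.72 scaled TPM at 30 min. The transcripts that fell changed less, with a median absolute change of 1.42 and median levels of 4.71 scaled TPM at 60 min and 14.9 scaled TPM at 30 min. A change above 2 log2 units was reached by 477 of the 867 that rose and by 24 of the 398 that fell. At 30 min, 58 of the transcripts that rose had a mean under 1 TPM, and at 60 min 55 of those that fell did.

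How many transcripts rose or fell depended on the scaling of the libraries and on other settings. With no filter on low TPM, 3 were called higher and 3 lower after scaling, and with a replicate block 1950 and 820. With the library number series as a term, a choice made after seeing the data, the counts were 1907 and 803. After median-ratio scaling, the factors of which were set by 10428 transcripts above 0 in every library, 1504 transcripts were called higher and 398 lower, or 11% and 2.92% of those tested. With TPM as deposited, 890 were called higher and 2548 lower, or 6.52% and 18.7%. Rises therefore made up 79.1% of the calls under one scaling and 25.9% under the other. The median over all transcripts was -0.10 log2 units after scaling and -0.47 as deposited, a shift of -0.37, and every change below is given after scaling unless stated. Not one transcript was called in opposite directions by the 2 scalings, and all 398 scaled falls were also falls as deposited. As the deposited changes lie lower by about this shift, that agreement was largely set beforehand and is no second test of the falls. Another 637 scaled rises and 2150 deposited falls were called under 1 scaling only. In the fit of TPM as deposited limma estimated an unlimited prior df, so transcripts of like level shared the same spread, and with its plain variance model (a choice made after seeing the data) that fit called 560 higher and 1187 lower, of which 560 and 395 were also called after scaling.

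**Figure D1:**
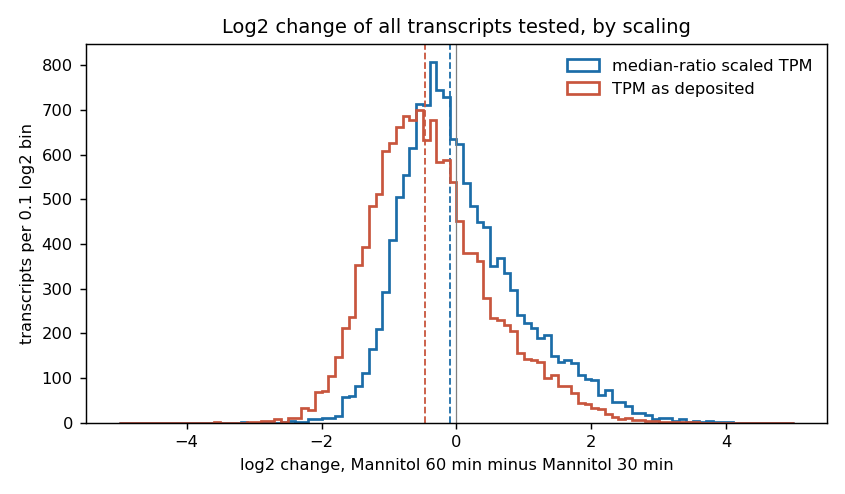
Distribution of the log2 change (Mannitol 60 min minus Mannitol 30 min, on log2(TPM + 1)) over 13651 transcripts, in bins of 0.1, for median-ratio scaled TPM (blue) and TPM as deposited (red); dashed lines mark the medians of -0.10 and -0.47. Both curves have a longer tail on the side of rises, and the deposited values lie to the left.

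One transcript, g15293.t1, held a large and uneven part of every library. It accounted for 37.6%, 29.9% and 17.9% of all TPM in Mannitol 60 min replicates 1, 2 and 3, against 9.54%, 25.7% and 6.68% in Mannitol 30 min replicates 1, 2 and 3. TPM of a library sum to a fixed total, so its share is taken from that of all other transcripts. With this transcript taken out and TPM brought back to the same total, without further scaling, 834 transcripts rose and 769 fell. The median over all transcripts was then -0.33, beside -0.10 after scaling and -0.47 as deposited. How much of the difference in counts goes with this transcript was not tested. Its own change was 1.80 ± 0.55 (SE) with an adjusted p of 0.0293, so it was not called after scaling, and its library shares in other groups ran up to 52.3%. Transcripts at 1 TPM or more numbered 10047 to 11387 in the Mannitol 60 min libraries and 11328 to 12589 in the Mannitol 30 min libraries. Read depth cannot be had from TPM and is unknown here. The labelled cell type was checked on annotated transcripts: the photosystem and light-harvesting genes PSAF, LHCB4 and PSBP1 lay between 545 and 3605 TPM in the 6 libraries, RCA1 between 98.7 and 319 TPM, the tubulin gene TUA1 between 334 and 1347 TPM, and the ciliary dynein DHC1 between 8.95 and 17.3 TPM.

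Mannitol 30 min replicate 2 stood between its group and the 60 min libraries. It was the highest of the 3 Mannitol 30 min libraries for 794 of the 867 transcripts that rose (91.6%), against 35.5% of all transcripts tested, and the lowest for 228 of the 398 that fell (57.3%), against 37.4% of all. The median level of the rising transcripts was 5.27, 4.98 and 5.03 log2 units in Mannitol 60 min replicates 1, 2 and 3, and 2.47, 3.48 and 2.65 in Mannitol 30 min replicates 1, 2 and 3. The falling transcripts had medians of 2.19, 2.76 and 2.48 at 60 min, and 4.04, 3.85 and 4.00 at 30 min. The sets were chosen on these 6 libraries, so that their medians lie apart is fixed by the choice. Without this library the step gave 1457 rises and 289 falls after scaling, of which 1301 and 226 were among the calls with all 6 libraries.

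The counts moved further without other libraries. Without Mannitol 60 min replicate 1 they were 356 rises and 26 falls, without Mannitol 30 min replicate 1 549 and 42, without Mannitol 60 min replicate 2 939 and 243, and without Mannitol 30 min replicate 3 903 and 148. Without Mannitol 60 min replicate 3 the counts were 1394 and 383. With replicates 1 and 2 alone, 688 rises and 126 falls were called. The 3 libraries of each group did not overlap, under both scalings, for 846 of the 867 rises and all 398 falls. The members were called on these same libraries, so this is largely set by the choice. Of all transcripts, 23.9% lay wholly higher and 21.9% wholly lower at 60 min after scaling, and 12.8% and 35.5% as deposited.

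The 10 largest rises among transcripts at 10 TPM or more were gene models without a name or description in the study's annotation. Cre06.g302050.t1.2 led, with 73.0, 40.7 and 42.6 scaled TPM in the Mannitol 60 min libraries, against 1.27, 4.92 and 1.35 in the Mannitol 30 min libraries. Its change was 4.02 ± 0.39 (SE, adjusted p = 0.000871 by limma), and even its highest 30 min value, in replicate 2, was far under its lowest 60 min value. Its course was a single peak in mannitol, at 0.514 ± 0.188 TPM in the 0 h controls (SD, n = 5), 52.1 ± 18.1 at 60 min and 5.88 ± 1.28 at 4 h (SD, n = 3). Cre02.g081700.t1.1 came next, at 123.96, 46.6 and 48.7 scaled TPM at 60 min, against 2.56, 4.96 and 2.69 at 30 min (change 3.96 ± 0.39 SE). It was the only 1 of the 10 that also passed the threshold upward in the NaCl step (1.38, adjusted p = 0.0006 by limma), and in NaCl it kept climbing to 320.4 ± 110.2 TPM at 24 h (SD, n = 3).

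The other 8 rose by 3.57 to 3.83 log2 units. Cre13.g588150.t1.2 was the most abundant of the 10, at 486, 327 and 496 scaled TPM in the Mannitol 60 min libraries, against 18.3, 71.6 and 27.6 in the Mannitol 30 min libraries. Cre13.g569850.t1.2 had 241, 149 and 162 at 60 min, against 4.93, 37.2 and 8.90 at 30 min. In all 10 of these rises replicate 2 was the highest of the 30 min libraries. That the groups did not overlap was a condition of the choice. Their SEs of 0.31 to 0.54 exceed the distances between neighbours, so the order within the 10 is not resolved.

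The largest fall was that of Cre16.g667850.t1.1, which had 2.50, 10.9 and 0.856 scaled TPM in the Mannitol 60 min libraries, against 38.9, 34.8 and 33.5 in the Mannitol 30 min libraries. The change was -3.11 ± 0.53 (SE, adjusted p = 0.00183 by limma), with the Mannitol 60 min libraries spread more than 10-fold. Cre05.g237700.t1.2 had 10.3, 6.95 and 7.86 at 60 min, against 60.6, 35.8 and 65.6 at 30 min (change -2.52 ± 0.30 SE). The most abundant of the 10 largest falls, g6631.t1, had 104, 100.4 and 96.0 at 60 min, against 594, 360 and 633 at 30 min (change -2.35 ± 0.29 SE). Its 60 min libraries agreed closely, and it was back at 543 ± 101 TPM at 4 h (SD, n = 3), while Cre16.g667850.t1.1 was still at 7.63 ± 2.88 TPM. None of these 10 carries a description in the annotation used here.

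**Figure D2:**
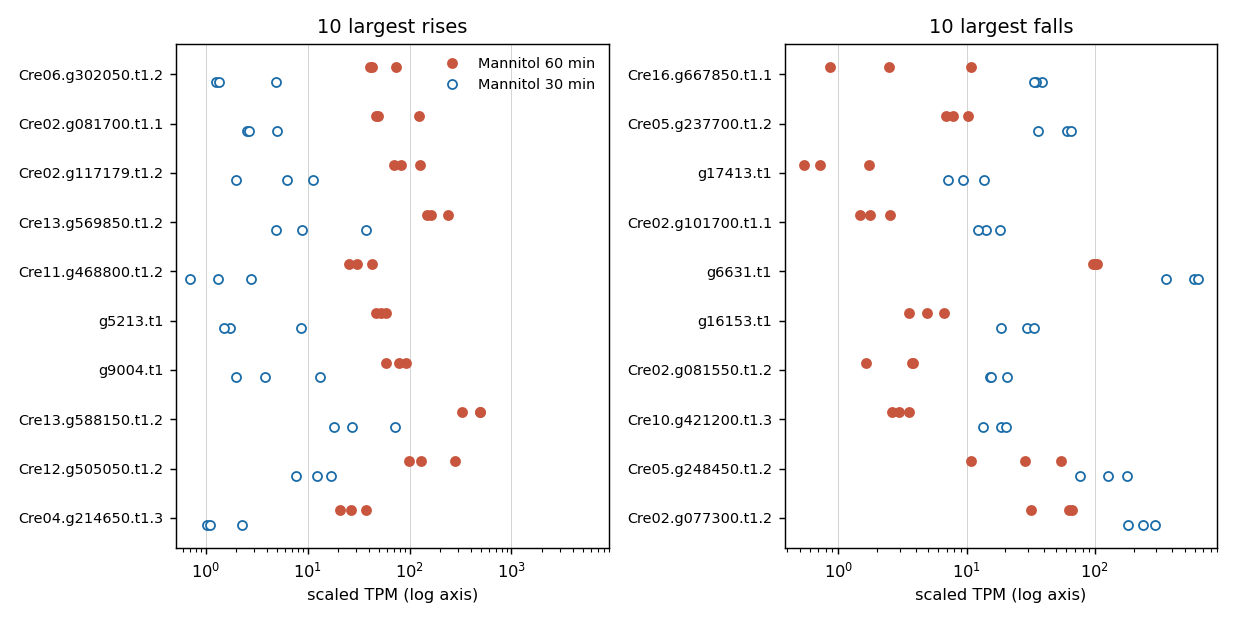
Median-ratio scaled TPM (log axis) in each library for the 10 largest rises (left) and the 10 largest falls (right); filled points are the 3 Mannitol 60 min libraries, open points the 3 Mannitol 30 min libraries. Rows were chosen for groups that do not overlap, as for Cre06.g302050.t1.2, at 40.7 to 73.0 against 1.27 to 4.92.

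Of 384 tested transcripts with a description, 40 rose and 20 fell after scaling, and 22 rose and 20 fell under both scalings. The rises were near the 11% and 6.35% of all transcripts, while the falls, 20 of 384, lay above the 2.92% of all. Every list count below is to be read against 11% higher and 2.92% lower over all transcripts after scaling, 6.52% and 18.7% as deposited, and medians of -0.10 and -0.47. The description came from lists that the study drew up partly on these samples, so the annotated genes are not a random part of the genome. Cre12.g500550.t1.2 carries the family label of a calcium-activated chloride channel regulator, which does not settle its function. It had 305, 167 and 244 scaled TPM in the Mannitol 60 min libraries, against 19.8, 57.98 and 28.9 in the Mannitol 30 min libraries. Its change of 2.81 ± 0.38 (SE, adjusted p = 0.000939 by limma) was the largest among described transcripts called under both scalings. The sodium/potassium-exchanging ATPase Cre06.g263950.t1.3 (ECA), a P-type pump that moves sodium out of the cell in animals, had 82.7, 81.5 and 74.5 at 60 min, against 13.4, 33.6 and 15.1 at 30 min. It rose by 2.01 ± 0.33 (SE, adjusted p = 0.00168), and the values at 60 min were nearly equal while those at 30 min differed up to replicate 2.

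Of 19 membrane transport transcripts tested, the ATPase among them, 2 rose, 1 fell and 16 were not called after scaling, beside 11% and 2.92% of all transcripts. As deposited 2 rose and 4 fell, beside 6.52% and 18.7%, and the list's median was 0.09 after scaling and -0.43 as deposited. The second rise was the magnesium transporter Cre07.g352750.t1.2, at 67.3, 40.96 and 40.7 scaled TPM in the Mannitol 60 min libraries, against 11.9, 20.5 and 11.1 in the Mannitol 30 min libraries. The fall was the mitochondrial carrier Cre15.g641200.t1.2 (OAC), at 95.7, 97.8 and 87.8 at 60 min, against 248, 183 and 188 at 30 min. Sodium/proton exchanger Cre01.g034150.t1.3 (NHX) had a change of -0.03, and the median over all 13651 transcripts was -0.10.

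Protein kinases, which pass stress signals on by phosphorylation, held the most calls of any list. Of 38 tested, 9 rose and 1 fell after scaling, 5 rose and 6 fell as deposited, and 5 rose and 1 fell under both; the list's median was 0.19 after scaling and -0.32 as deposited. The share that rose was 9 of 38 beside the background of 11% over all transcripts. Cre14.g628200.t1.3, annotated as a non-specific protein-tyrosine kinase, had 25.3, 23.9 and 15.9 scaled TPM in the Mannitol 60 min libraries, against 2.17, 7.64 and 1.35 in the Mannitol 30 min libraries (change 2.47 ± 0.43 SE). Mitogen-activated cascades, in which kinases activate other kinases, held both rises and members that were not called. The MAPKKK-related Cre03.g175600.t1.3 had 11.6, 9.07 and 8.28 at 60 min, against 1.35, 2.04 and 0.913 at 30 min (2.14 ± 0.28). The MEKK-related Cre03.g205950.t1.3 had 117, 76.2 and 72.6, against 15.2, 38.8 and 19.4 (1.89 ± 0.35). The MAPK-family Cre17.g698550.t1.3 also rose (1.52). Not called under either scaling were the kinases Cre08.g384900.t1.2 (MAPKK, 0.11), Cre06.g310100.t1.2 (MAPKKK-type, 0.38), Cre16.g661100.t1.2 (MAPK, -0.07) and Cre13.g607300.t1.2 (MAPK, -0.55). A WNK kinase, Cre01.g040200.t1.2, of the family that controls chloride cotransport under osmotic stress in animals, had 113, 72.3 and 128 at 60 min, against 19.1, 34.9 and 24.6 at 30 min (1.96 ± 0.31).

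The single kinase that fell was Cre12.g483650.t1.2, named STN7 here after its family label as a serine/threonine-protein kinase. That label does not settle the function of this gene. It had 5.41, 6.43 and 6.98 scaled TPM in the Mannitol 60 min libraries, against 22.3, 15.7 and 18.3 in the Mannitol 30 min libraries (change -1.44 ± 0.26 SE, adjusted p = 0.00253 by limma). Among 5 protein phosphatases, 1 rose and none fell after scaling, beside 11% of all that rose, and 1 fell as deposited, beside 18.7% of all (median 0.13 after scaling and -0.45 as deposited). That rise was the tyrosine-specific phosphatase Cre07.g317150.t1.2, at 61.5, 61.1 and 62.6 at 60 min, against 15.2, 37.1 and 20.7 at 30 min. It was not called as deposited, where its change was 0.83.

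Inositol and its phosphates serve as compatible solute precursors and as second messengers. INO1 (Cre03.g180250.t1.2), inositol-3-phosphate synthase, catalyses the first step of inositol synthesis and was abundant, at 929, 606 and 748 scaled TPM in the Mannitol 60 min libraries, against 154, 304 and 214 in the Mannitol 30 min libraries. Its change was 1.79 ± 0.32 (SE, adjusted p = 0.00231 by limma), and the level was back at 169 ± 20.1 TPM at 4 h, beside 130 ± 20.97 TPM in the 0 h controls (SD). INP5 (Cre12.g530050.t1.2), a phosphoinositide 5-phosphatase that removes a phosphate from inositol lipids, had 27.9, 17.7 and 20.5 at 60 min, against 6.47, 8.50 and 4.65 at 30 min, and rose by 1.62 ± 0.29 after scaling but was not called as deposited. INP5 belongs to a list of proteins that the study picked for differing phosphorylation under osmotic stress. Of 27 transcripts tested for that list, 3 rose and 2 fell after scaling, with a median of 0.34, the rises at the 11% of all transcripts. As deposited 1 rose and 4 fell, with a median of -0.21.

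The largest rise among those 27 was CYG55 (Cre13.g574400.t1.3), an adenylate/guanylate cyclase, at 153, 212 and 489 scaled TPM in the Mannitol 60 min libraries, against 18.1, 111 and 44.2 in the Mannitol 30 min libraries. It varied widely in every group, with 108 ± 112 TPM in the 0 h controls (SD, n = 5), and the adjusted p of 0.00923 lay just inside the threshold. The third rise was POC3 (Cre17.g730650.t1.2), a dysferlin-related protein, at 25.7, 12.8 and 16.4 at 60 min, against 5.30, 5.92 and 6.35 at 30 min. The falls were STN7 and HSP90C, given with their own groups.

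Transcription factors had the highest median of the lists, 1.31 after scaling and 0.78 as deposited, over 8 transcripts of which 3 rose and 1 fell under either scaling, beside 11% and 2.92% of all after scaling. The RWP-RK factor Cre03.g149400.t1.3, of a family that regulates nitrogen responses and gametogenesis in green algae, had 11.3, 13.1 and 12.5 scaled TPM in the Mannitol 60 min libraries, against 1.62, 3.46 and 1.65 in the Mannitol 30 min libraries (change 2.08 ± 0.29 SE, adjusted p = 0.00095 by limma). The SQUAMOSA promoter-binding-like Cre02.g112750.t1.2 had 24.4, 18.6 and 24.5 at 60 min, against 3.95, 6.62 and 5.76 at 30 min (1.88 ± 0.27). The helix-loop-helix protein Cre14.g620850.t1.2 had 146, 139 and 166, against 40.9, 67.3 and 47.6 (1.54 ± 0.27), and was not called as deposited. The ABI3/VP1 family factor Cre13.g562400.t1.2, whose plant relatives act downstream of abscisic acid in seeds, went the other way, at 2.25, 5.57 and 2.70 at 60 min, against 10.7, 8.24 and 13.05 at 30 min (-1.42 ± 0.32).

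The AP2-like factor Cre08.g385350.t1.1, named here after its values were seen, averaged 65.4 TPM at 60 min and 17.2 TPM at 30 min. Its change of 1.82 missed the threshold after scaling (adjusted p = 0.0115 by limma) and passed as deposited. It was lower in the NaCl step (-3.62), a difference of steps of 5.45. Among other described rises was Cre16.g654550.t1.2, described as a JmjC-domain histone H3 lysine-36 demethylase, which removes methyl groups from histone H3. It had 60.3, 34.2 and 43.1 scaled TPM in the Mannitol 60 min libraries, against 4.83, 9.55 and 4.95 in the Mannitol 30 min libraries (change 2.68 ± 0.32 SE). A member of the SMC family, whose proteins organise chromosomes, Cre06.g283500.t1.3, had 15.5, 12.1 and 10.1, against 2.38, 3.12 and 1.91 (1.96 ± 0.28). Among enzymes, the flavin-containing monooxygenase Cre03.g148900.t1.3 had 32.01, 34.6 and 32.3, against 4.15, 11.4 and 3.80 (2.33 ± 0.35). The 15 largest described rises were taken only from those called, without overlap of the groups, under both scalings. The other 3 of them, an NF-E2 inducible protein (Cre06.g304850.t1.3), a C2-domain protein (Cre10.g446000.t1.3) and a TMF DNA-binding domain protein (Cre03.g187000.t1.3), changed by 1.78 to 2.14.

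Ribosome biogenesis and the nucleolus had the lowest median of the lists. Of 8 tested transcripts none rose, 2 fell and 6 were not called after scaling, with a median of -0.999, beside 2.92% of all that fell, while 7 fell as deposited, with a median of -1.54, beside 18.7% of all. Nucleolin (Cre06.g275100.t1.2), an abundant nucleolar protein needed for ribosomal RNA transcription and processing, had 85.2, 154 and 135 scaled TPM in the Mannitol 60 min libraries, against 348, 463 and 380 in the Mannitol 30 min libraries. It fell by 1.697 on the log2 scale (SE 0.29, adjusted p = 0.00202 by limma), and the lowest 30 min library was more than 2-fold above the highest 60 min library. The nucleolar protein Cre16.g690500.t1.2 had 30.8, 40.8 and 47.3 at 60 min, against 77.5, 93.5 and 136 at 30 min (-1.33 ± 0.29). The rRNA methyltransferase Nop2 (Cre06.g273413.t1.3), at -1.03, and the tRNA cytidine acetyltransferase Cre03.g192850.t1.2, at -1.04, did not pass after scaling and passed as deposited.

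Translation and RNA handling held further falls. Of 7 translation initiation transcripts 2 fell and none rose after scaling (median -0.69), beside 2.92% of all that fell, and 5 fell as deposited (median -1.27), beside 18.7% of all. The initiation factor 4 transcript Cre12.g529950.t1.2, of the complex that brings mRNA to the ribosome, had 26.9, 32.9 and 36.7 scaled TPM in the Mannitol 60 min libraries, against 85.9, 85.8 and 68.1 in the Mannitol 30 min libraries (change -1.29 ± 0.25 SE). The 4B-related Cre16.g688050.t1.3 had 12.8, 11.6 and 15.96, against 35.3, 25.2 and 42.8 (-1.27 ± 0.28). The initiation factor 3 subunit Cre05.g242300.t1.2, at -1.07, did not pass after scaling and passed as deposited. The ribosomal protein transcripts of the list did not follow: RPS6, RPL9 and RPS25 changed by 0.30 to 0.61, none was called under either scaling, and their groups overlapped (list median 0.54 after scaling and -0.05 as deposited).

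Of 12 transcripts of mRNA splicing and decay, 2 fell under both scalings and none rose (median 0.19 after scaling and -0.33 as deposited), beside 2.92% of all. DCP1B (Cre07.g339250.t1.2), described as mRNA-decapping enzyme 1B, had 4.61, 7.34 and 5.02 scaled TPM in the Mannitol 60 min libraries, against 17.8, 11.7 and 21.6 in the Mannitol 30 min libraries (change -1.42 ± 0.30 SE). THOC1 (Cre16.g695300.t1.3), a subunit of the THO complex of mRNA export, had 2.51, 2.67 and 2.13, against 7.98, 5.08 and 6.55 (-1.12 ± 0.27). The splicing factor PRP18A (Cre13.g567750.t1.2), at 1.36, was not called. Described falls outside the lists included 2 DEAD-box RNA helicases (Cre10.g436650.t1.3 and Cre02.g118300.t1.2), the elongation factor TFIIS (Cre09.g386350.t1.3), a growth-regulating nucleolar protein (Cre17.g701050.t1.2) and a cell death-related nuclease (Cre10.g429601.t1.3), with changes of -1.54 to -1.25.

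Nitrogen assimilation had 2 falls and no rise among 5 transcripts (median -0.80), beside 2.92% of all that fell, and 4 falls as deposited (median -1.38), beside 18.7% of all. Glutamine synthetase GLN1 (Cre02.g113200.t1.3), which fixes ammonium into glutamine, had 56.6, 70.04 and 64.7 scaled TPM in the Mannitol 60 min libraries, against 177, 132 and 173 in the Mannitol 30 min libraries (change -1.31 ± 0.26 SE, adjusted p = 0.00359 by limma). Glutamate synthase (Cre13.g592200.t1.2), which works next to it in the same cycle, had 21.4, 33.2 and 33.7 at 60 min, against 79.9, 62.1 and 66.9 at 30 min (-1.24 ± 0.27). The second glutamine synthetase of the list, GLN3 (Cre12.g530600.t1.3), was near 1 TPM, at 1.31, 0.739 and 3.13 against 0.220, 0.606 and 0.627, and was not called.

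Photosynthesis showed 1 call after scaling, STN7, and none upward among 16 transcripts (median -0.43), beside 2.92% of all that fell, but 8 falls as deposited (median -1.02), beside 18.7% of all. Low-CO2 inducible LCIC (Cre06.g307500.t1.1), a part of the carbon-concentrating mechanism, had 58.2, 116 and 125 scaled TPM in the Mannitol 60 min libraries, against 321, 264 and 191 in the Mannitol 30 min libraries. Its change of -1.41 missed the threshold at an adjusted p of 0.0107 (limma). The magnesium chelatase subunit H (Cre07.g325500.t1.1), of chlorophyll synthesis, had 65.7, 84.8 and 49.3 at 60 min, against 198, 180 and 114 at 30 min (-1.28, adjusted p = 0.0103 by limma). The groups did not overlap in either after scaling, and both passed as deposited. CGL78 (Cre12.g490500.t1.2), described only as a predicted protein, did fall under both scalings, at 55.3, 33.3 and 49.03, against 121, 113 and 115 (-1.36 ± 0.27).

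Cell cycle and DNA replication transcripts likewise had 1 fall among 16 after scaling (median -0.73), beside 2.92% of all, and 10 as deposited (median -1.13), beside 18.7% of all. That fall was RIR2 (Cre12.g491050.t1.2), a ribonucleotide reductase subunit that supplies deoxyribonucleotides, at 10.8, 16.8 and 13.7 scaled TPM in the Mannitol 60 min libraries, against 35.8, 34.2 and 26.6 in the Mannitol 30 min libraries (change -1.18 ± 0.27 SE). The cyclin-dependent kinase CDKB1 (Cre08.g372550.t1.1), at -1.16, was called as deposited only. The same was true of heat shock protein HSP70A (Cre08.g372100.t1.2), at -0.50, in the chaperone list, where the plastid chaperone HSP90C (Cre12.g514850.t1.2) was the 1 fall of 3 (22.5, 28.6 and 25.02 at 60 min, against 69.95, 52.9 and 49.9 at 30 min). The plastid translation list held PSRP3 and PRPL32, both called lower as deposited and neither after scaling (median -0.66, and -1.24 as deposited).

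In the remaining lists few transcripts were called after scaling, and as deposited falls outnumbered rises over them. Of 25 transcripts of cilia and flagella 1 rose after scaling, FAP33 (Cre14.g614850.t1.3), at 23.9, 21.5 and 20.4 scaled TPM in the Mannitol 60 min libraries, against 7.95, 7.72 and 7.25 in the Mannitol 30 min libraries. This 1 of 25 stands beside 11% of all transcripts, and as deposited none of the list rose and 4 fell (list median 0.14 after scaling and -0.42 as deposited). Of 15 cytoskeleton transcripts 2 rose (median 0.38 after scaling and -0.06 as deposited), a katanin-type microtubule-severing ATPase (Cre12.g541300.t1.2; 16.6, 6.37 and 13.99 against 1.71, 4.75 and 2.24) and a myosin heavy chain (Cre13.g563800.t1.3), and as deposited 1 rose and 2 fell. The kinesin Cre17.g730950.t1.2, at 1.35, was not called. Of 14 vesicle traffic transcripts 2 rose, near the 11% of all (median 0.49 after scaling and -0.05 as deposited), a retromer subunit that sorts endosomal cargo (Cre07.g326450.t1.3; 34.8, 17.5 and 15.5 against 5.19, 6.41 and 6.00) and a clathrin interactor (Cre16.g664450.t1.3), and neither was called as deposited, where 1 fell. Of 8 sphingolipid and sterol transcripts 2 oxysterol-binding proteins rose (Cre16.g653700.t1.3 by 1.31 and Cre16.g670050.t1.2 by 1.16; list median 0.68 after scaling and 0.15 as deposited), neither of them as deposited, where 1 fell. Of 9 starch and sugar phosphate transcripts none was called after scaling (median 0.17, and -0.42 as deposited), and the starch-phosphorylating dikinase GWD1 (Cre07.g319300.t1.3), with a change of 1.99 and an adjusted p of 0.0118 (limma), was called higher as deposited only, where 3 others fell.

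Genes that the study took from its screen of mutants under osmotic stress had 4 rises and 1 fall among 48 transcripts (median 0.11), with 2 rises and 5 falls as deposited (median -0.32). Beside the ATPase and the carrier OAC, these were the calcium/calmodulin-dependent kinase CDPK (Cre03.g153150.t1.2), at 5.67, 4.93 and 5.11 scaled TPM in the Mannitol 60 min libraries, against 1.51, 1.18 and 1.80 in the Mannitol 30 min libraries, and 2 genes named for their mutant growth defect, OSMO3 (Cre06.g256700.t1.3; 3.61, 4.01 and 3.57 against 0.838, 1.59 and 0.790) and OSMO7 (Cre09.g410200.t1.2; 10.4, 10.4 and 9.28 against 3.40, 4.45 and 4.19). The share that rose, 4 of 48, is to be read against 11% of all transcripts.

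**Figure D3:**
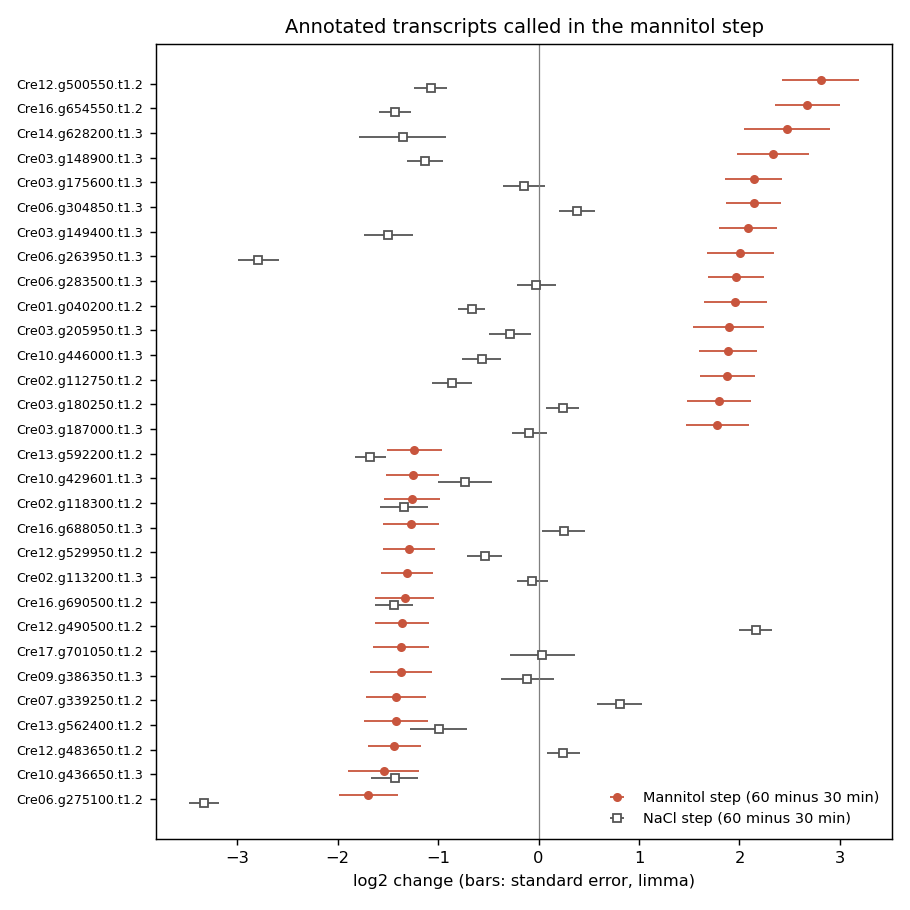
Log2 change of 30 described transcripts called under both scalings, 15 rises above and 15 falls below, in the mannitol step (red circles) and the NaCl step (open squares), each 60 min minus 30 min with its limma standard error. The ATPase Cre06.g263950.t1.3 lies at 2.01 and -2.79, and CGL78 (Cre12.g490500.t1.2) at -1.36 and 2.16.

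Through the whole time course the transcripts called in the mannitol step formed a pulse at 60 min. The set was chosen at 30 and 60 min, so only the other times are new. The mean of the library medians of the rising set was 2.41 ± 0.07 log2 units in the 0 h controls (SD, n = 5), 2.30 ± 0.17 at 15 min, 2.86 ± 0.54 after 30 min, 5.09 ± 0.16 after 60 min and 2.86 ± 0.07 after 4 h of mannitol (SD, n = 3 each), with 2.79 ± 0.06 after 24 h. From 60 min to 4 h the median member fell by 2.15, a comparison that shares the 60 min libraries, and 93.9% of members were lower by more than 1 log2 unit, against 17.6% of all. The falling set was at 4.13 ± 0.16 in the 0 h controls, 4.20 ± 0.10 at 15 min, 3.96 ± 0.10 after 30 min, 2.48 ± 0.29 after 60 min and 3.89 ± 0.13 by 4 h. All transcripts tested stayed between 2.33 and 2.44 on the same scale in mannitol.

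In NaCl the rising set was highest at 30 min and the falling set lowest at 60 min. The rising set was at 3.37 ± 0.06 log2 units at 15 min, 4.52 ± 0.14 after 30 min, 3.79 ± 0.04 after 60 min, 3.45 ± 0.05 by 4 h and 3.22 ± 0.05 at 24 h (SD, n = 3 each). Between 15 and 30 min in NaCl, libraries that had no part in choosing the set, 62.2% of its members were higher by more than 1 log2 unit, against 6.81% of all transcripts. The falling set was at 3.74 ± 0.02 at 15 min, 2.94 ± 0.07 after 30 min, 2.52 ± 0.02 after 60 min and 3.54 ± 0.01 by 4 h of NaCl, and 23.9% of its members were lower by more than 1 between 15 and 30 min, against 2.44% of all.

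**Figure D4:**
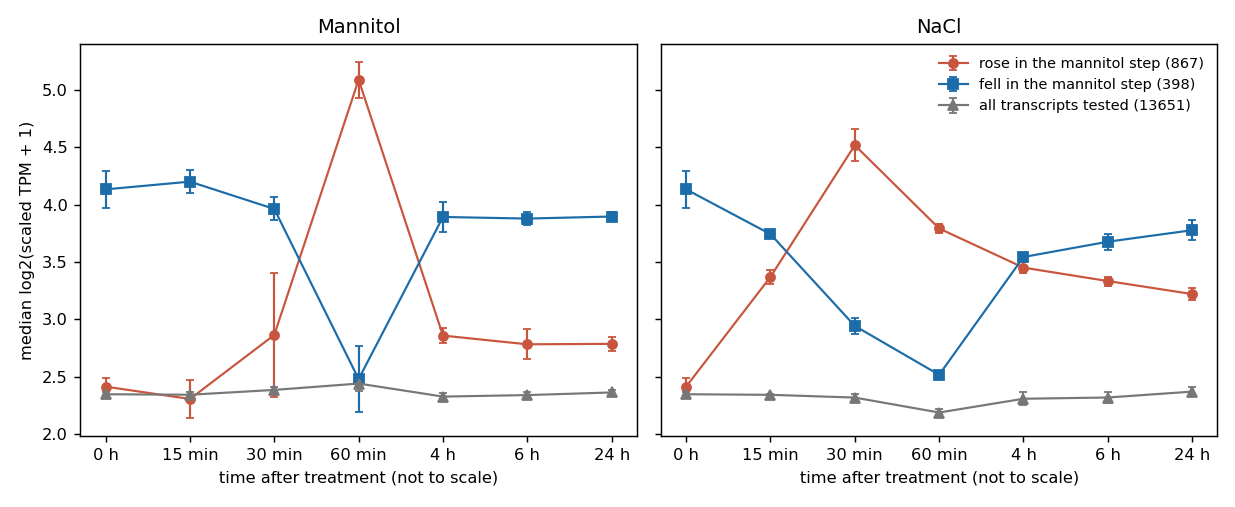
Mean over libraries of the median log2(scaled TPM + 1) of the 867 transcripts that rose (red), the 398 that fell (blue) and all 13651 tested (grey), by time in mannitol (left) and NaCl (right), with 0 h from the untreated controls; bars are SD over 3 libraries (5 at 0 h), and times are not to scale. The rising set is highest at 60 min in mannitol, at 5.09, and at 30 min in NaCl, at 4.52.

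The same interval in NaCl went partly in the opposite direction. Between 30 and 60 min in NaCl, 770 transcripts rose (5.64%) and 1190 fell (8.72%) after scaling, and 795 (5.82%) and 1041 (7.63%) as deposited. Of the 867 transcripts that rose in mannitol, 249 fell in NaCl under both scalings, which is 28.7% of the mannitol list and 24.4% of the 1019 NaCl falls, where 7.46% of all transcripts fell. Only 16 rose in both, or 1.85% of the mannitol list and 2.20% of the 728 NaCl rises, where 5.33% of all rose. Of the 398 falls in mannitol, 68 fell in NaCl too (17.1% of the mannitol list and 6.67% of the NaCl list), and 26 rose (6.53% and 3.57%).

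The difference between the steps was tested as an interaction over the 12 libraries. The mannitol step was called higher than the NaCl step for 1978 transcripts (14.5%) and lower for 952 (6.97%) after scaling, and for 1112 (8.15%) and 1781 (13%) as deposited, where 21.2% were called in either direction. Among the 867 rises the interaction was called higher under both scalings in 681 (78.5%), and among the 398 falls it was called lower in 141 (35.4%). These shares carry the mannitol step that chose the members, so they are a description.

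The largest differences were in undescribed gene models that rose in mannitol and fell in NaCl. Transcript g5380.t1 had 871, 652 and 1187 scaled TPM in the Mannitol 60 min libraries, against 45.2, 213 and 64.8 in the Mannitol 30 min libraries, and averaged 49.7 ± 7.999 TPM in NaCl 60 min and 600.4 ± 12.03 TPM in NaCl 30 min (SD, n = 3 each). The steps differed by 6.92 ± 0.58 (SE, adjusted p = 4.15e-06 by limma). Cre12.g510500.t1.3 had 121, 113 and 131 at 60 min, against 6.85, 28.6 and 6.49 at 30 min, in mannitol, and averaged 7.14 ± 0.88 and 65.7 ± 6.50 TPM in NaCl 60 min and NaCl 30 min, a difference of steps of 6.38 ± 0.54. Its NaCl level rose again later, to 50.3 ± 2.64 TPM at 4 h, against 6.90 ± 0.87 TPM at 4 h in mannitol.

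Among described transcripts called under both scalings in the mannitol step the sodium/potassium ATPase differed most. It averaged 79.6 ± 4.43 TPM in Mannitol 60 min and 20.7 ± 11.2 TPM in Mannitol 30 min, beside 5.31 ± 0.66 TPM in NaCl 60 min and 43.1 ± 9.05 TPM in NaCl 30 min (SD, n = 3 each), with 14.5 ± 1.75 TPM in the 0 h controls. The difference of steps was 4.79 ± 0.40 (SE, adjusted p = 4.15e-06 by limma). CGL78 was its mirror, at 45.9 ± 11.3 TPM in Mannitol 60 min and 116 ± 3.93 in Mannitol 30 min, beside 349 ± 60.0 in NaCl 60 min and 76.6 ± 6.03 in NaCl 30 min, with a difference of -3.52 ± 0.30 (adjusted p = 4.20e-06).

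Nucleolin fell in both steps and further in NaCl, to 17.4 ± 1.19 TPM in NaCl 60 min, against 184 ± 21.5 in NaCl 30 min, beside 125 ± 35.3 in Mannitol 60 min and 397 ± 59.1 in Mannitol 30 min. The steps differed by 1.63 ± 0.32 (SE, adjusted p = 0.00116 by limma) after scaling, and the difference was not called as deposited. INO1 was not called in the NaCl step, at 791 ± 36.6 TPM in NaCl 60 min and 674 ± 96.2 in NaCl 30 min, where its NaCl 15 min level was 344 ± 16.7 TPM. Its steps differed by 1.55 ± 0.36 (adjusted p = 0.00396) after scaling, and not as deposited.

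**Figure D5:**
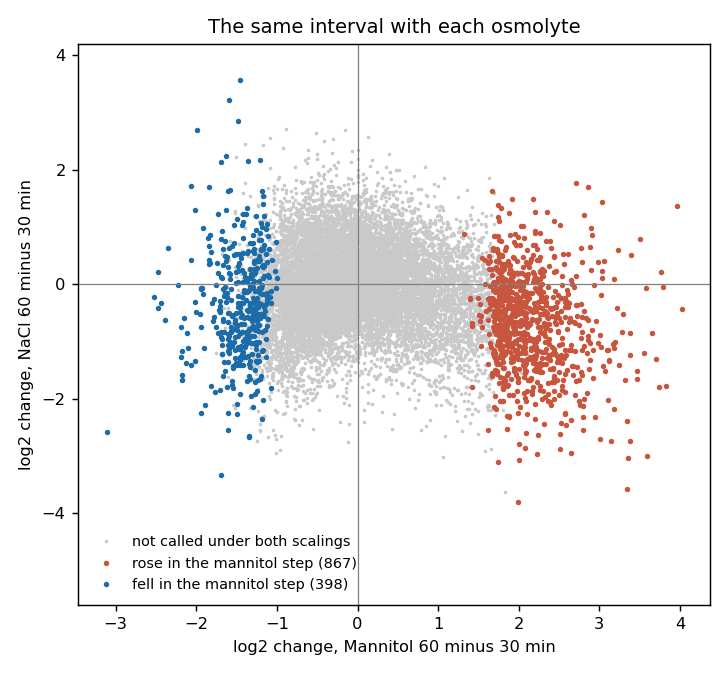
Log2 change between 30 and 60 min in mannitol (horizontal) and in NaCl (vertical) for each of 13651 transcripts, with the 867 that rose in mannitol in red, the 398 that fell in blue and the others in grey. Most red points lie below the horizontal line, among them the 249 that also fell in NaCl.

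Position along the chromosomes was compared with the gene order of RefSeq assembly v5.5, for 9892 matched genes. Of the risen genes with a tested neighbour, 127 of 575 (22.1%) had an adjacent gene that rose too, against 9.64% of all 8996 such genes. For falls the figures were 18 of 297 (6.06%) against 5.01%. The longest run was 3 adjacent rises. The share of genes that rose ran between 2.87% on chromosome 14 and 9.33% on chromosome 5. Whether reads were counted by strand is not given in the sources used here, so reads of overlapping neighbours on opposite strands cannot be told apart.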

How the data were processed

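RNA was measured by RNA-seq (poly(A) libraries, single-end reads) in 45 libraries, of which 6 carry the comparison. The authors aligned reads with BWA to Chlamydomonas genome 5.6, per the study's methods and the submitters' processing notes. The deposited table holds TPM per transcript. How TPM were computed is not given in the sources used here, and as TPM keep no read depth, the depth is unknown and no counting interval is given. One line without a transcript name was left out, no value column was unused, and the table has 19526 transcripts of 17737 genes.

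Transcripts at 1 TPM or more in at least 3 libraries were kept (13651). TPM were divided by median-ratio factors from transcripts above 0 in all libraries, or used as deposited, and a pseudocount of 1 was added before log2. This pseudocount shrinks the changes of transcripts at low TPM. limma 3.58.1 in R 4.3.3 (eBayes with trend and robust options) compared Mannitol 60 min with Mannitol 30 min over their 6 libraries, NaCl 60 min with NaCl 30 min over theirs, and the difference of the steps over all 12. P-values were adjusted by Benjamini-Hochberg over all transcripts tested, and a call needed an adjusted p under 0.01 and a fold above 2. The fit was tested on simulated data.

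Named transcripts were the 10 largest rises and 10 largest falls called, without overlap, under both scalings and at 10 TPM or more, up to 15 described transcripts per direction, the 10 largest differences between steps, up to 4 members per gene list and the transcript with the largest share of TPM. Members and lists were chosen with earlier results of these data known. Descriptions came from the study's annotation (384 tested transcripts), lists drawn from gene symbols alone were not used, and gene order came from RefSeq v5.5, without its coordinates. In NaCl, same-numbered libraries deviated together (r = 0.15, 0.16 and 0.35 across transcripts). Replicates 1 and 2 crossed gave 0.12 in both pairings, so for them this does not show that the numbers pair libraries. Replicate 3 crossed with replicates 1 and 2 gave -0.23 to -0.21. The main fits were unpaired. Alternatives were other scalings, pseudocounts, filters, thresholds, sample sets, variance models, a replicate block and each library left out.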

Additional observations from a re-analysis of the deposited data

Results flagged for a closer look

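The mannitol step minus the NaCl step differed from 0 for 67 of the named transcripts, by limma's interaction term over 12 libraries (adjusted p under 0.01, more than 2-fold), where the background after scaling was 14.5% higher and 6.97% lower. All values are log2 differences after scaling, and named transcripts were chosen partly for the size of this difference.

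Undescribed transcripts that rose in mannitol had differences of 6.92 (g5380.t1), 6.60 (Cre12.g505050.t1.2), 6.38 (Cre12.g510500.t1.3), 6.11 (g6309.t1), 5.89 (Cre08.g360200.t1.2), 5.78 (Cre12.g546500.t1.2), 5.73 (g597.t1), 5.71 (Cre07.g324500.t1.2), 5.602 (Cre02.g117179.t1.2), 5.59 (g16717.t1) and 5.53 (g5213.t1). Smaller ones were 5.002 (g9004.t1), 4.50 (Cre13.g588150.t1.2), 4.44 (Cre06.g302050.t1.2), 3.84 (Cre13.g569850.t1.2), 3.64 (Cre04.g214650.t1.3), 3.56 (Cre11.g468800.t1.2) and 2.58 (Cre02.g081700.t1.1).

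Described transcripts that rose in mannitol had differences of 4.79 (ATPase, Cre06.g263950.t1.3), 4.11 (H3 demethylase, Cre16.g654550.t1.2), 3.88 (chloride channel regulator, Cre12.g500550.t1.2), 3.82 (kinase, Cre14.g628200.t1.3), 3.58 (RWP-RK factor, Cre03.g149400.t1.3), 3.47 (monooxygenase, Cre03.g148900.t1.3), 2.74 (SQUAMOSA-like, Cre02.g112750.t1.2) and 2.62 (WNK kinase, Cre01.g040200.t1.2). The others were 2.46 (C2 protein, Cre10.g446000.t1.3), 2.29 (MAPKKK-related, Cre03.g175600.t1.3), 2.17 (MEKK-related, Cre03.g205950.t1.3), 1.99 (SMC, Cre06.g283500.t1.3), 1.87 (TMF, Cre03.g187000.t1.3), 1.76 (NF-E2 inducible, Cre06.g304850.t1.3) and 1.55 (INO1, Cre03.g180250.t1.2).

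Among transcripts that fell in mannitol, nucleolin (Cre06.g275100.t1.2) had a difference of 1.63, since it fell further in NaCl. The others were -3.52 (CGL78, Cre12.g490500.t1.2), -2.99 (g6631.t1), -2.31 (Cre05.g237700.t1.2), -2.22 (g16153.t1), -2.22 (DCP1B, Cre07.g339250.t1.2), -2.12 (Cre02.g101700.t1.1), -2.06 (g17413.t1), -1.68 (STN7, Cre12.g483650.t1.2), -1.52 (initiation factor 4B-related, Cre16.g688050.t1.3) and -1.25 (GLN1, Cre02.g113200.t1.3).

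Other members of the lists that were called higher in the mannitol step had differences of 3.09 (helix-loop-helix, Cre14.g620850.t1.2), 3.08 (FAP33, Cre14.g614850.t1.3), 2.65 (katanin, Cre12.g541300.t1.2), 2.59 (magnesium transporter, Cre07.g352750.t1.2), 2.15 (phosphatase, Cre07.g317150.t1.2), 2.12 (OSMO7, Cre09.g410200.t1.2) and 2.099 (myosin, Cre13.g563800.t1.3). Smaller ones were 1.94 (OSMO3, Cre06.g256700.t1.3), 1.93 (INP5, Cre12.g530050.t1.2), 1.701 (retromer, Cre07.g326450.t1.3), 1.69 (POC3, Cre17.g730650.t1.2), 1.49 (oxysterol-binding, Cre16.g670050.t1.2), 1.35 (clathrin interactor, Cre16.g664450.t1.3) and 1.304 (CDPK, Cre03.g153150.t1.2), and OAC (Cre15.g641200.t1.2), which fell in mannitol, had -1.97. Transcripts not called in the mannitol step itself had differences of 5.45 (AP2-like, Cre08.g385350.t1.1), 3.14 (FAP215, Cre03.g180450.t1.2), 2.03 (PRP18A, Cre13.g567750.t1.2), 1.85 (kinesin, Cre17.g730950.t1.2), 1.61 (Nop2, Cre06.g273413.t1.3), 1.33 (phosphoglycerate mutase family, Cre02.g086500.t1.2), -1.68 (CDKB1, Cre08.g372550.t1.1) and -2.47 (magnesium chelatase H, Cre07.g325500.t1.1). With TPM as deposited the difference was not called for 14 of the 67, among them INO1 and nucleolin.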

How the results depend on the processing

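No called transcript named in the text changed sign under any alternative run. They were named for calls on these same libraries, so this was nearly set by the choice. Of 20 list medians, 11 had the opposite sign with TPM as deposited, 7 without the largest transcript, 6 under quantile scaling and 1 with no filter or without Mannitol 60 min replicate 2 or Mannitol 30 min replicate 3. The mannitol step called 1504 transcripts higher and 398 lower. TPM as deposited gave 890 and 2548, the same with limma's plain variance model 560 and 1187, TPM without the largest transcript 834 and 769, no filter 3 and 3, a fold above 4 477 and 24, and replicates 1 and 2 alone 688 and 126. Counts of falls also moved under quantile scaling (845), an adjusted p under 0.05 (952), a fit over all 14 groups (858) and the library number series as a term (803). Leaving out 1 library gave 356 to 1457 higher and 26 to 383 lower, the lowest without Mannitol 60 min replicate 1. The replicate block gave 1950 higher and 820 lower. Same-numbered mannitol libraries had correlations of deviations of 0.06, 0.08 and 0.45 for replicates 1, 2 and 3. Replicates 1 and 2 crossed gave 0.17 and 0.27, so their numbers do not show a pairing. Replicate 3 crossed with replicates 1 and 2 gave -0.30 to -0.22, so the replicate 3 libraries deviated together. Their library numbers lie in the later series.

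The NaCl step called 770 higher and 1190 lower. It gave 740 lower without the largest transcript, 298 and 428 with no filter, and 42 and 158 at a fold above 4. Leaving out 1 library gave 416 to 695 higher and 660 to 1061 lower. The replicate block gave 882 and 1394.

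The difference of the steps was called higher for 1978 and lower for 952. It gave 1112 and 1781 with TPM as deposited, 1091 and 1572 with the plain variance model as well, 966 higher without the largest transcript, 1257 higher at a mean TPM of 5 or more, 1156 and 246 at a fold above 4, 1710 lower at an adjusted p under 0.05, and 509 lower with replicates 1 and 2. Leaving out 1 library gave 1573 to 2072 higher and 578 to 1004 lower. The plain variance model on deposited TPM and the library number series were chosen after seeing the data, and the cause of each shift was not tested. For 93 named results of the mannitol step, 1428 alternatives gave the same outcome, 95 gained a call and 416 lost it. The same outcome includes transcripts called neither in the main run nor in the alternative. For 59 named differences of steps, all called in the main run, 1488 alternatives kept the call and 95 lost it.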
